A study of Rattus norvegicus with 32 samples.

Results

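Sarcolipin (Sln), phospholamban (Pln), the calcium pump SERCA2 (Atp2a2) and cardiac calsequestrin (Casq2) are 4 genes of the sarcoplasmic reticulum, the calcium store of muscle. They were taken by gene symbol from a table of 12901 genes measured in rat gastrocnemius, which lies in the calf and is rich in fast fibres; all 4 were among the 11594 genes with enough counts to be tested. All rats were males of 20 weeks on chow, the diet being named in the series title. There were 9 libraries of UCP1 knockout rats after 2 weeks at 4 °C (KO_4C), 9 of UCP1 knockout rats at room temperature (KO_RT), 7 of cold-exposed control rats (control_4C, also 2 weeks at 4 °C) and 7 of control rats at room temperature (control_RT). UCP1 is the mitochondrial protein through which brown fat turns fuel into heat. The sources used here name neither the rat strain nor the knockout allele, and give neither the temperature of the room nor the head of the muscle. The genotype labels were not set against the knocked-out gene, since Ucp1 was not analysed here. The labels do not say whether cold and room-temperature muscles came from separate animals, so p-values measure the spread between these samples.

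Muscle relaxes when SERCA pumps carry calcium from the cytosol back into the sarcoplasmic reticulum at the cost of ATP. SERCA2 is the pump of slow fibres and of the heart, while fast fibres use SERCA1 (Atp2a1, not analysed here). Sarcolipin and phospholamban are small membrane peptides that bind the pump and restrain it. Phospholamban lowers its affinity for calcium and is released by phosphorylation; sarcolipin, from work in mice and on isolated pumps, lets the pump split ATP with less calcium moved, which frees heat. Calsequestrin 2 is the calcium-binding protein inside the store of slow and cardiac muscle. The measurements are of RNA, taken as 3′-end tags of whole muscle, in which more cells of a type and more RNA per cell cannot be told apart.

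The promoters of 3 of the 4 genes were matched in RefSeq's sequences of the rat build GRCr8, and are shown because these genes moved together with cold, while their base composition differs. Each runs from 250 bases before to 50 bases after the gene's start on the + strand, and capitals mark E-boxes (CANNTG, bound by myogenic factors) and a match to the MEF2 motif, a site for a muscle transcription factor. The windows are chr20:33172244-33172543 (Pln), chr12:39733269-39733568 (Atp2a2) and chr2:192214306-192214605 (Casq2).
Pln: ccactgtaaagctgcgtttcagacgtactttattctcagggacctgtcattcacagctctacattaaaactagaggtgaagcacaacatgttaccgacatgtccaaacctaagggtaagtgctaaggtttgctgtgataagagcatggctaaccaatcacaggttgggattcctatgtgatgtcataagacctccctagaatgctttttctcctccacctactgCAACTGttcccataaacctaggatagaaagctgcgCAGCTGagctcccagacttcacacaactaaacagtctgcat
Atp2a2: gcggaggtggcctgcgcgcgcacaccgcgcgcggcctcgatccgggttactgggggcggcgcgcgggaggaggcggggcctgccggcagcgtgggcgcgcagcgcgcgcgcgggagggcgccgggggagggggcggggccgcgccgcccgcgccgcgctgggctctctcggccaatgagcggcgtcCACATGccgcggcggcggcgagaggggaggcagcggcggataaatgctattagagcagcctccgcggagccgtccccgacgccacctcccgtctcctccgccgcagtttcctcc
Casq2: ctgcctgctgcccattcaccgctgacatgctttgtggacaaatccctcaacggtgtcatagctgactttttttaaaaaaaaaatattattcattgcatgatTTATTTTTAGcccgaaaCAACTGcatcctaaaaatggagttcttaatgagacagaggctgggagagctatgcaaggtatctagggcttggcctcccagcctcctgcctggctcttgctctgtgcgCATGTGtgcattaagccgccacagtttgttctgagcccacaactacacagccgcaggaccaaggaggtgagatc
On both strands, the Pln window held 2 E-boxes, the Atp2a2 window 1 and the Casq2 window 2. An E-box was present in 72.1% of 33469 rat promoter windows of this length. The Casq2 window held 1 MEF2 match, TTATTTTTAG, beginning at base -149 from the gene's start, and such a match was present in 3.29% of all windows. The Pln and Atp2a2 windows held no match to it. The 5-letter NFAT core GGAAA, found in 62.7% of windows, was present once in the Atp2a2 window and in neither of the others. The letters AGGTCA, a nuclear receptor half-site found in 16.2% of windows, and TATAAA, found in 14.2%, were in none of the 3. The windows also differed in composition. G and C made up 79.0% of the Atp2a2 window, more than in 98.8% of all windows, against 45.0% for Pln, 47.7% for Casq2 and a median of 51.7% over all windows. These matches are descriptions of letters in a window and not evidence of binding.

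Levels are given in CPM, counts scaled to a common library total with TMM factors, with the SD between libraries. Library totals ran from 7.28e+06 to 2.58e+07 counts. Skeletal muscle identity was clear in every library: the 5 general markers analysed (Ckm, Acta1, Mb, Tnnt3 and Des) summed to between 60850 and 85794 CPM in KO_4C, 76637 and 94294 CPM in KO_RT, 62379 and 87804 CPM in control_4C, and 81570 and 95897 CPM in control_RT. Some libraries stood apart within their group. A transcript-loss index, the mean log2 CPM of 104 genes that were low in the knockout room-temperature library numbered KO10 in the deposited table, was defined after the data had been seen. It was lowest in KO10 (2.16, low by construction), control_RT replicate 2 (2.28), control_RT replicate 3 (2.85) and KO8 (2.96). It averaged 4.80 ± 0.20 in KO_4C, 4.33 ± 1.04 in KO_RT, 4.87 ± 0.12 in control_4C and 3.38 ± 0.69 in control_RT, and did not overlap between control_4C (lowest 4.70) and control_RT (highest 4.17). All member results below are therefore also given with this index as a covariate or without those 4 libraries where the value or the call moved.

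After 2 weeks at 4 °C all 4 genes were higher than at room temperature in the muscle of both genotypes. Sln rose 8.04-fold in knockout rats and 9.80-fold in control rats, while Pln, Atp2a2 and Casq2 rose between 1.57- and 1.92-fold. In knockout rats 4 of 4 members were called higher, where 7.49% of all tested genes were; in control rats 4 of 4 were called higher, where 12.4% of all tested genes were. Genes called higher in both genotypes made up 3.43% of those tested (398 genes). The cold comparisons of the 2 genotypes share no library. A call is an adjusted p under 0.05 in edgeR's quasi-likelihood test with Benjamini-Hochberg adjustment over all 11594 genes.

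**Figure D1:**
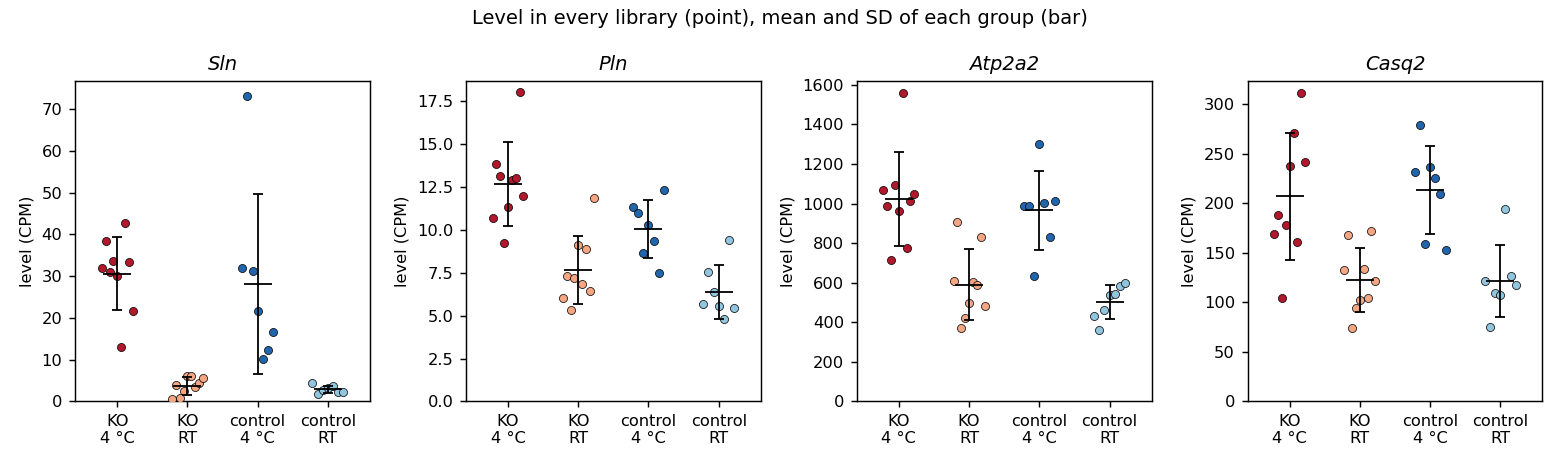
CPM (linear axis from 0) of Sln, Pln, Atp2a2 and Casq2 in each library (point), with the mean and SD of each group (bar), for KO_4C, KO_RT, control_4C and control_RT. Every Sln point of the cold groups lies above every room-temperature point, while the cold and room-temperature points of Pln and Casq2 overlap.

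Sarcolipin had the widest response. In KO_4C libraries it ran from 12.9 to 42.8 CPM with a median of 31.8, and in KO_RT libraries from 0.574 to 6.16 CPM with a median of 3.95. In control_4C libraries it ran from 10.1 to 73.1 CPM with a median of 21.7, and in control_RT libraries from 1.67 to 4.43 CPM with a median of 2.81. No cold library overlapped with a room-temperature library of its genotype, a separation upwards seen for 0.975% of tested genes in knockout rats and 3.42% in control rats. Group means were 30.6 ± 8.81 CPM in KO_4C against 3.73 ± 2.12 CPM in KO_RT (SD, n = 9 each), and 28.1 ± 21.6 CPM in control_4C against 2.86 ± 0.942 CPM in control_RT (SD, n = 7 each). The log2 change was 3.01 ± 0.37 in knockout rats (SE, edgeR adjusted p = 1.49e-06) and 3.29 ± 0.43 in control rats (adjusted p = 8.64e-06). Sorted by log2 change, Sln stood at place 2 of 11594 genes in knockout rats and at place 4 in control rats.

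The 4 Sln levels formed a cold pair and a room-temperature pair, KO_4C above control_4C and KO_RT above control_RT, with the genotypes of each pair differing by less than the spread between libraries. Sln also varied more among libraries of 1 group than genes of like mean level. Its pooled SD within groups was 0.85 on the log2 scale, larger than for 99.0% of 3365 genes whose mean CPM lay within a factor of 2 of its own. That mean, 16.4 CPM, lies between its cold and room-temperature levels, and at room temperature Sln had 4 to 88 counts per library. The part of small counts in its SD was not tested. In control_4C, replicate 2 (73.1 CPM) stood above the other libraries, of which the next highest was at 31.8 CPM. In KO_RT the libraries KO8 and KO10 stood below the rest, with 0.574 and 0.743 CPM from 4 and 12 counts; the other 7 KO_RT libraries ran from 2.49 to 6.16 CPM. These were also the KO_RT libraries lowest on the transcript-loss index. Without the 4 lowest libraries on that index, the log2 change of Sln was 2.73 ± 0.36 in knockout rats and 3.17 ± 0.44 in control rats. With the index as a covariate, an alternative chosen after seeing the data, it was 2.76 ± 0.31 in knockout rats and 1.85 ± 0.51 in control rats (edgeR adjusted p = 5.93e-07 and 0.0437). In control rats the index did not overlap between the temperatures, so there the index and the cold cannot be told apart.

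Phospholamban rose less and its groups overlapped. Pln ran from 9.25 to 18.0 CPM in KO_4C libraries with a median of 12.9, and from 5.32 to 11.9 CPM in KO_RT libraries with a median of 7.21. It ran from 7.46 to 12.3 CPM in control_4C libraries with a median of 10.3, and from 4.82 to 9.38 CPM in control_RT libraries with a median of 5.67. In knockout rats 6 of 9 cold libraries lay above the highest room-temperature library, and in control rats 4 of 7 did; against the room-temperature mean, 9 of 9 and 7 of 7 lay higher. Means were 12.7 ± 2.46 CPM in KO_4C against 7.67 ± 1.99 CPM in KO_RT (SD, n = 9 each), and 10.06 ± 1.68 CPM in control_4C against 6.40 ± 1.57 CPM in control_RT (SD, n = 7 each). The log2 change was 0.72 ± 0.15 in knockout rats (SE, edgeR adjusted p = 0.000697) and 0.65 ± 0.17 in control rats (adjusted p = 0.00476). Of the 4 genes Pln varied least within groups, with a pooled SD of 0.30 on the log2 scale, larger than for 38.3% of 3328 genes of like abundance. In the GRCr8 annotation Pln overlaps 1 other gene, Cep85l, and whether the authors' counting used strand is not given in the sources used here. Cep85l, looked up for that overlap, averaged 10.4 ± 2.93 CPM in KO_4C against 7.36 ± 1.60 CPM in KO_RT, and 11.8 ± 2.39 CPM in control_4C against 8.35 ± 1.44 CPM in control_RT. It too was called higher in cold (log2 0.49 ± 0.15, edgeR adjusted p = 0.0247, in knockout rats and 0.50 ± 0.17, adjusted p = 0.0324, in control rats), and its part in the Pln counts was not tested.

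SERCA2, the pump that both peptides bind, gave the most counts of the 4 genes. Atp2a2 ran from 715 to 1559.7 CPM in KO_4C libraries with a median of 1013, and from 371 to 909 CPM in KO_RT libraries with a median of 587. It ran from 636 to 1300.02 CPM in control_4C libraries with a median of 987, and from 362 to 596 CPM in control_RT libraries with a median of 538. The control groups did not overlap, a separation upwards seen for 3.42% of tested genes in control rats. In knockout rats, where 0.975% of tested genes separated upwards, 7 of 9 KO_4C libraries lay above the highest KO_RT library. Means were 1025 ± 239 CPM in KO_4C against 591 ± 178 CPM in KO_RT (SD, n = 9 each), and 965 ± 201 CPM in control_4C against 502 ± 85.8 CPM in control_RT (SD, n = 7 each). The log2 change was 0.80 ± 0.15 in knockout rats (SE, edgeR adjusted p = 0.000382) and 0.94 ± 0.17 in control rats (adjusted p = 0.000291). The other SERCA gene analysed, Atp2a3, the pump of non-muscle cells, did not pass the test in either genotype (log2 0.14 ± 0.16 and 0.44 ± 0.19, edgeR adjusted p = 0.624 and 0.0931, knockout and control).

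Calsequestrin 2 followed the pump. Casq2 ran from 105 to 312 CPM in KO_4C libraries with a median of 188, and from 74.4 to 172 CPM in KO_RT libraries with a median of 121. It ran from 153 to 279.6 CPM in control_4C libraries with a median of 226, and from 75.5 to 194 CPM in control_RT libraries with a median of 117. The ranges overlapped in both genotypes, with 6 of 9 KO_4C and 5 of 7 control_4C libraries above every room-temperature library of their genotype. Means were 207 ± 63.8 CPM in KO_4C against 123 ± 32.7 CPM in KO_RT (SD, n = 9 each), and 214 ± 44.9 CPM in control_4C against 122 ± 36.0 CPM in control_RT (SD, n = 7 each). The log2 change was 0.75 ± 0.18 in knockout rats (SE, edgeR adjusted p = 0.00432) and 0.81 ± 0.21 in control rats (adjusted p = 0.00502). Casq1, the calsequestrin of fast fibres, did not pass the test in either genotype (log2 0.16 ± 0.11 and -0.10 ± 0.12, edgeR adjusted p = 0.358 and 0.616, knockout and control).

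The ratio of 2 genes within a library does not depend on the library's total, so ratios show how the members moved against each other. Tag counts are not comparable between genes as amounts of RNA, so only the change of a ratio between groups is read. Against the pump, the 2 peptides parted: Sln per Atp2a2 rose with cold in both genotypes, and no change of Pln per Atp2a2 passed the test. Sln counts per 1000 Atp2a2 counts averaged 32.3 ± 13.2 in KO_4C against 6.51 ± 4.04 in KO_RT (SD, n = 9 each), and 30.5 ± 23.4 in control_4C against 5.83 ± 2.26 in control_RT (SD, n = 7 each). The log2 ratio differed by 2.49 ± 0.47 in knockout rats (SE, exact permutation test, two-sided, p = 0.000165, adjusted p = 0.00165) and by 2.12 ± 0.44 in control rats (exact p = 0.00117, adjusted p = 0.00583); the adjustment runs over 30 tests, 6 ratios in 5 contrasts. Groups overlapped in both genotypes, although 9 of 9 KO_4C and 7 of 7 control_4C libraries lay above the room-temperature mean.

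Pln counts per 1000 Atp2a2 counts averaged 12.99 ± 3.92 in KO_4C against 14.04 ± 5.44 in KO_RT, and 10.7 ± 2.01 in control_4C against 13.2 ± 4.25 in control_RT. Their log2 difference was -0.08 ± 0.24 in knockout rats (exact permutation p = 0.741) and -0.27 ± 0.20 in control rats (exact p = 0.2005), so any cold shift of phospholamban against the pump was within the spread between libraries. Casq2 per 1000 Atp2a2 counts averaged 203 ± 52.0 in KO_4C against 210 ± 21.9 in KO_RT, and 225 ± 45.2 in control_4C against 243 ± 59.0 in control_RT. The log2 differences, -0.08 ± 0.13 and -0.10 ± 0.17, did not pass the exact permutation test (p = 0.521 and 0.557). No shift of Pln per Casq2 passed the test either (log2 0.00 ± 0.23 in knockout rats, p = 0.986, and -0.17 ± 0.28 in control rats, p = 0.564, exact permutation).

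The ratio of the 2 peptides to each other separated every cold from every room-temperature library. Sln per Pln averaged 2.48 ± 0.820 in KO_4C against 0.471 ± 0.259 in KO_RT, and 2.75 ± 1.93 in control_4C against 0.483 ± 0.223 in control_RT. In the lowest cold library of knockout rats, KO_4C replicate 6, Sln and Pln had the same count, and the lowest ratio in control_4C was 1.08, in replicate 5. The highest room-temperature ratios were 0.875 in the KO_RT library KO14 and 0.780 in control_RT replicate 1. The log2 difference was 2.57 ± 0.40 in knockout rats (exact permutation p = 4.11e-05, adjusted p = 0.00123) and 2.39 ± 0.43 in control rats (exact p = 0.000583, adjusted p = 0.00350). These p-values are the smallest that 9 against 9 and 7 against 7 libraries can give. Sln per Casq2 rose likewise, to 168 ± 82.5 per 1000 Casq2 counts in KO_4C against 30.6 ± 17.8 in KO_RT, and to 129 ± 77.3 in control_4C against 24.0 ± 6.95 in control_RT (log2 2.57 ± 0.47 and 2.22 ± 0.37, exact permutation p = 8.23e-05 and 0.000583, adjusted p = 0.00123 and 0.00350, knockout and control). Without the 4 libraries lowest on the transcript-loss index, all 6 of these Sln ratio changes stayed past the threshold, with log2 differences from 1.97 to 2.24.

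**Figure D2:**
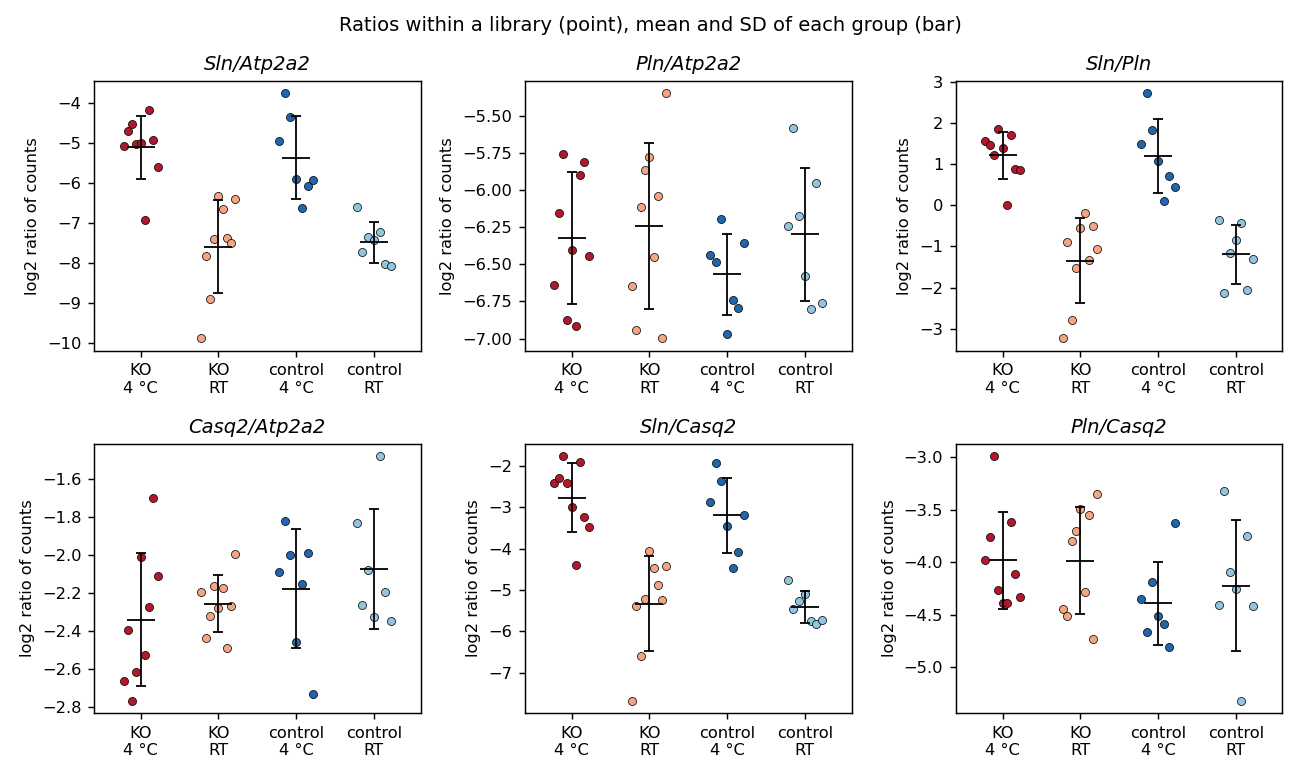
Log2 ratio of counts of each pair of members within a library (point), with mean and SD of each group (bar), for KO_4C, KO_RT, control_4C and control_RT. In the 3 panels with Sln the cold groups lie higher, and in the Sln/Pln panel no cold point reaches a room-temperature point, while the Pln/Atp2a2, Casq2/Atp2a2 and Pln/Casq2 panels overlap.

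Between UCP1 knockout and control muscle no difference in the 4 genes was detected at either temperature. At room temperature 0 of 4 members were called between knockout and control, against 2.61% of all tested genes, and after cold 0 of 4, against 0.0518%. At an unadjusted p under 0.05, 0 of 4 passed at room temperature and 1 of 4, Pln, after cold; DESeq2 called 0 of 4 in both. The number of all genes called moved with the setting: edgeR's 303 genes at room temperature compare with 573 in DESeq2, 708 without the 4 libraries lowest on the transcript-loss index and 1 with the index as a covariate, and its 6 genes after cold with 121 under RLE factors and 432 in DESeq2. At room temperature the log2 difference of Sln was 0.40 ± 0.41 (SE, edgeR adjusted p = 0.680), of Pln 0.26 ± 0.16 (0.411), of Atp2a2 0.23 ± 0.16 (0.498) and of Casq2 0.01 ± 0.19 (0.986). After cold these differences were 0.12 ± 0.35 for Sln (edgeR adjusted p = 0.933), 0.33 ± 0.15 for Pln (0.313), 0.09 ± 0.16 for Atp2a2 (0.881) and -0.05 ± 0.19 for Casq2 (0.958). Pln came closest: 8 of 9 KO_4C libraries lay above the control_4C mean, with an unadjusted p of 0.0411. These errors leave room for differences of modest size, above all for Sln. With the transcript-loss index as a covariate, the room-temperature difference of Sln was -0.73 ± 0.44 (SE, edgeR adjusted p = 0.534). That of Casq2 was then -0.16 ± 0.22 (0.824). Apart from KO8 and KO10, KO_RT libraries had an index of 4.52 or more and control_RT libraries one of 4.17 or less. So genotype and index can hardly be told apart at room temperature.

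The cold response itself was compared between genotypes by an interaction term, the log2 change in knockout rats minus that in control rats. It was -0.28 ± 0.54 for Sln (SE, edgeR adjusted p = 0.869), 0.06 ± 0.22 for Pln (0.937), -0.15 ± 0.23 for Atp2a2 (0.833) and -0.06 ± 0.27 for Casq2 (0.957). Calls were made for 0 of 4 members, against 0.0259% of all tested genes (3 genes); 0 of 4 passed at an unadjusted p under 0.05, and DESeq2 called 0 of 4 members and 106 genes in all; without the 4 libraries lowest on the transcript-loss index edgeR called 288 genes. Across the ratios, 0 of 18 genotype and interaction tests passed, and 0 of 18 had an unadjusted exact permutation p under 0.05. Pln per Casq2 after cold came closest, with 66.4 ± 25.2 per 1000 Casq2 counts in KO_4C against 49.1 ± 15.3 in control_4C (log2 0.41 ± 0.21, exact permutation p = 0.0788, adjusted p = 0.338). With the transcript-loss index as a covariate, the interaction of Sln itself was 0.91 ± 0.53 (SE, edgeR adjusted p = 0.496), of the opposite sign.

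**Figure D3:**
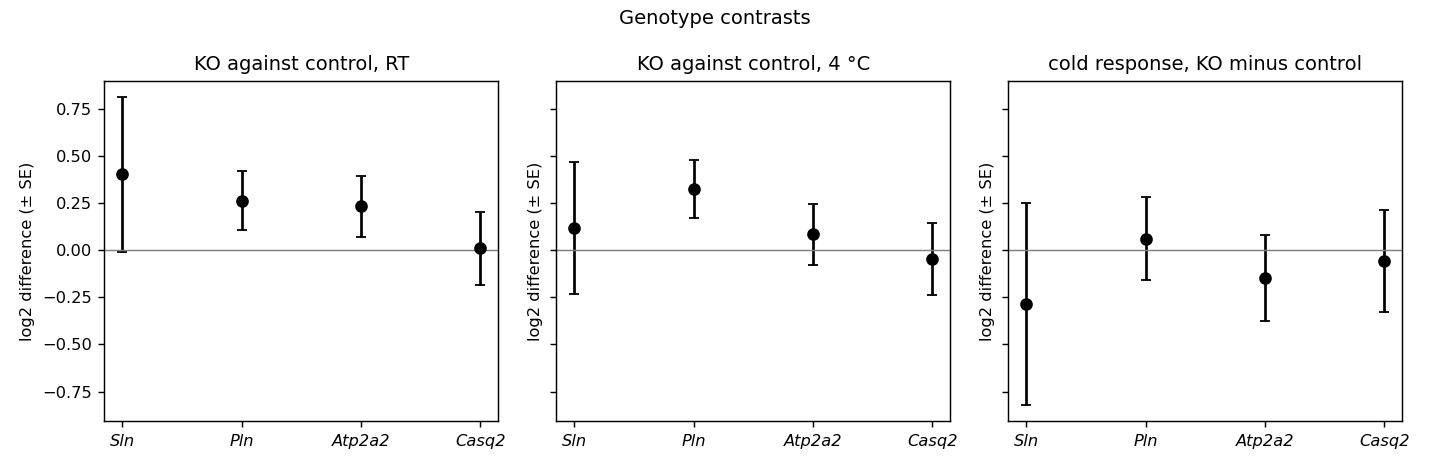
Log2 difference (± SE, edgeR) of each member for knockout against control at room temperature, knockout against control at 4 °C, and the cold response in knockout minus that in control. The points lie between -0.28 and 0.40, and no difference was called.

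How the members moved with the slow-fibre programme was followed with a slow-fibre score, the mean log2 CPM of 11 slow-fibre markers that include no member. The score averaged 9.80 ± 0.20 in KO_4C against 9.06 ± 0.39 in KO_RT, and 9.91 ± 0.22 in control_4C against 9.04 ± 0.35 in control_RT (SD). In both genotypes 9 of the 11 markers were called higher in cold, all but Actn2 and Myl3, with a median log2 change of 0.77 in knockout rats and 0.94 in control rats; over all tested genes the median was 0.01 and 0.03. Examples are Myoz2, a Z-disc protein (0.96 and 0.97, knockout and control), and Tnni1, slow troponin I (0.82 and 0.87). The summed markers ran from 11557 to 22549 CPM in KO_4C against 7138 to 16255 CPM in KO_RT, and from 13528 to 22755 CPM in control_4C against 7393 to 13766 CPM in control_RT.

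With the slow-fibre score as a covariate, the members fell into 2 patterns. Atp2a2 and Casq2 are themselves genes of slow fibres, and the score rose with cold. Its ranges overlapped little: from 9.43 in KO_4C against up to 9.60 in KO_RT, and from 9.50 in control_4C against up to 9.55 in control_RT. So this fit cannot tell a slow-fibre part of the change from a cold part. The cold terms of Atp2a2 and Casq2 came close to 0: Atp2a2 had a log2 change of 0.12 ± 0.13 in knockout rats (SE, edgeR adjusted p = 0.705) and 0.11 ± 0.15 in control rats (0.733), and Casq2 had -0.00 ± 0.17 (0.999) and -0.05 ± 0.19 (0.903). Sln kept most of its change, with 2.63 ± 0.50 in knockout rats (edgeR adjusted p = 0.00208) and 2.81 ± 0.61 in control rats (adjusted p = 0.00865). Pln kept most of its size, with 0.64 ± 0.21 and 0.56 ± 0.24, but lost its call (edgeR adjusted p = 0.0776 and 0.167, knockout and control). Deviations of single libraries from their group means told the 4 genes apart in the same way. Over the 32 libraries, the deviations of Atp2a2 and Casq2 correlated with those of the slow-fibre score (Pearson r = 0.83 and 0.76), and those of Sln and Pln hardly did (r = 0.27 and 0.09). This is a description of libraries that share depth and scaling. Counts per library were unlike: 42 to 344 for Pln and 4 to 88 for room-temperature Sln, against 904 or more for Atp2a2 and Casq2. The part of small counts in these correlations was not tested.

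Of the 4 genes, Sln followed the transcript-loss index most closely. Deviations of Sln correlated with those of the index over the 32 libraries (r = 0.74), against 0.26 for Pln, 0.31 for Atp2a2 and 0.29 for Casq2. The index genes were chosen as low in KO10, where Sln was also low (0.743 CPM), so part of that correlation is built in. Within KO_4C and KO_RT, r fell from 0.84 and 0.91 to 0.43 and 0.35 without the 2 libraries farthest from the index median. With the index as a covariate Sln kept its call in both genotypes, with the smaller change in control rats. Pln, Atp2a2 and Casq2 kept their calls in knockout rats (log2 0.67, 0.73 and 0.69) and lost them in control rats (log2 0.46 ± 0.22, 0.70 ± 0.22 and 0.56 ± 0.27, edgeR adjusted p = 0.268, 0.0734 and 0.279). Without the 4 libraries lowest on it, 8 of 8 member calls in cold held; the highest adjusted p was that of Casq2, with 0.69 ± 0.19 in knockout rats (edgeR adjusted p = 0.0174) and 0.67 ± 0.22 in control rats (adjusted p = 0.0378).

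**Figure D4:**
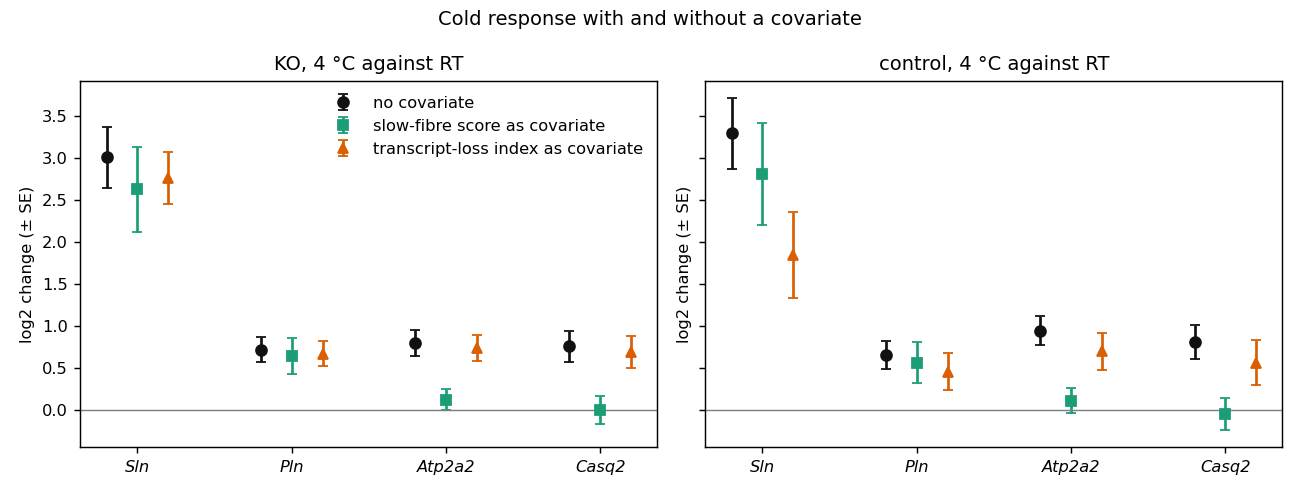
Log2 change (± SE, edgeR) with cold of each member in knockout rats (left panel) and control rats (right panel), with no covariate (circle), with the slow-fibre score (square) and with the transcript-loss index (triangle). Atp2a2 and Casq2 lie near 0 with the slow-fibre score in both panels, and Sln stays at 1.85 or above in every fit.

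Within single groups the members varied together in 1 case. Of 24 correlations between members (6 pairs in 4 groups), Atp2a2 with Casq2 in KO_RT passed the adjustment (Pearson r = 0.93, exact permutation p = 0.000375, adjusted p = 0.00899; Spearman rho = 0.92, adjusted p = 0.0315; n = 9), and r was 0.88 without the 2 libraries farthest from the median of Atp2a2. The same pair had r = 0.68 in KO_4C (exact permutation p = 0.0468, adjusted p = 0.289), 0.51 in control_4C and 0.62 in control_RT. Among 32 correlations with the slow-fibre score and the transcript-loss index, added after seeing the data, the score passed in KO_RT with Atp2a2 (r = 0.95, exact permutation p = 0.000196, adjusted p = 0.00626, n = 9) and Casq2 (r = 0.89, exact permutation adjusted p = 0.0255). Spearman rho was 0.93 for both (adjusted p = 0.0120, exact permutation), and without the 2 libraries farthest from the median of the score r was 0.91 and 0.74. Sln with the index gave r = 0.84 in KO_4C and 0.91 in KO_RT (exact permutation adjusted p = 0.0635 and 0.0665). Spearman rho was 0.78 and 0.67 (exact permutation adjusted p = 0.184 and 0.319). Without the 2 libraries farthest from the index median r was 0.43 and 0.35. That step also narrows the range of the index, so it cannot tell whether the relation rests on those libraries.

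**Figure D5:**
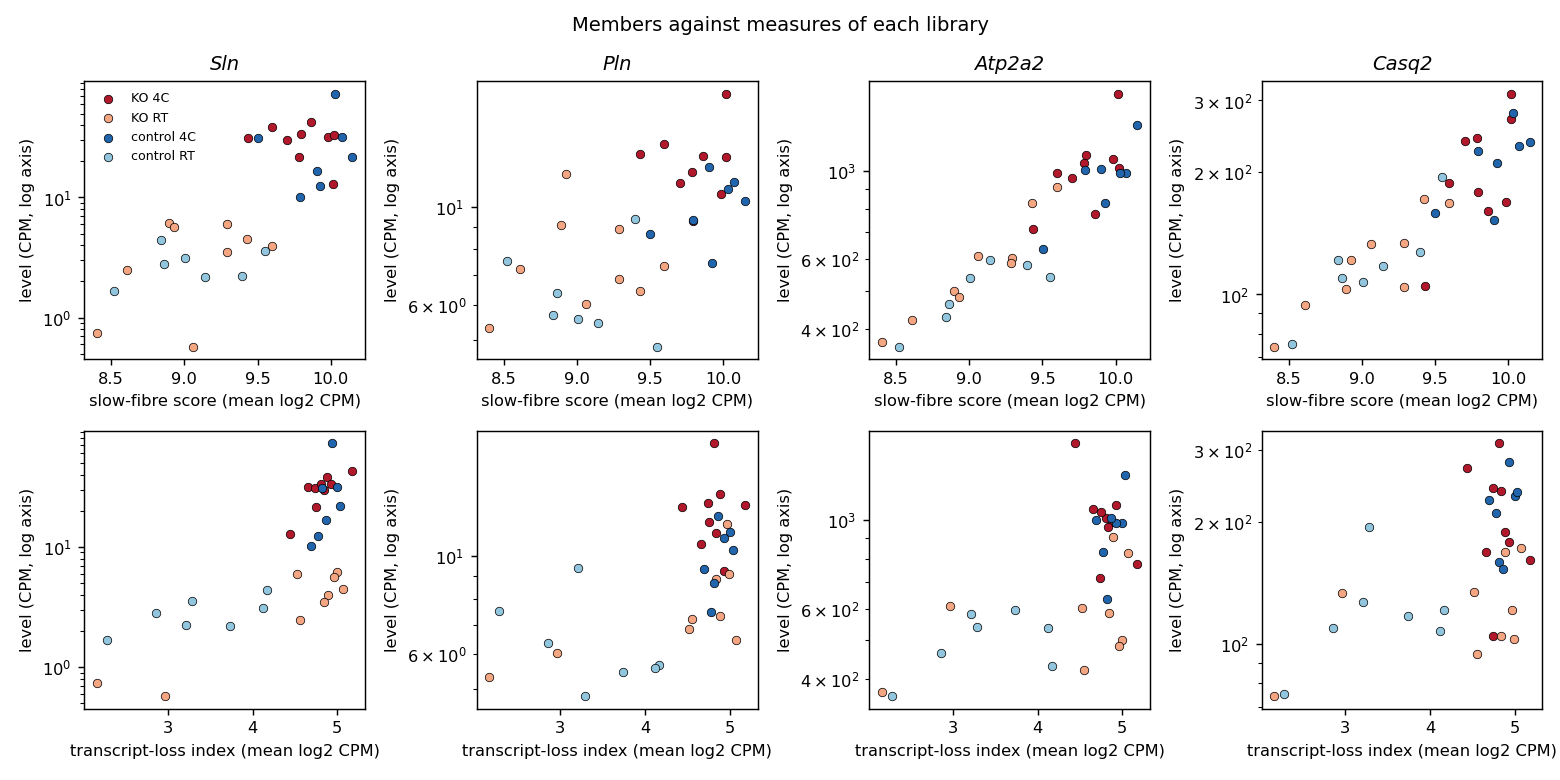
CPM of each member (log axis) against the slow-fibre score (upper row) and the transcript-loss index (lower row), both in mean log2 CPM, with 1 point per library coloured by group. Atp2a2 and Casq2 climb with the slow-fibre score across groups, and within a group their correlation with it passed the test in KO_RT only. At a like index the cold points of Sln lie above the KO_RT points, while no control_RT point reaches the index of a cold point.

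The genes most like each member in pattern were found among 6952 tested genes with a mean of at least 5 CPM, by Spearman correlation over the 32 libraries, groups included. For Atp2a2 these were Ldhb, the heart-type lactate dehydrogenase subunit (0.94), Tpm3, slow tropomyosin (0.92), and Tnnt1, slow troponin T (0.92). For Casq2 they were Tpm3 (0.89), Lmcd1, a LIM-domain protein of striated muscle (0.86), and Atp2a2 itself (0.83). For Sln they were B2m, the light chain of MHC class I (0.94), Tmem43, a nuclear envelope protein (0.92), and Myl12a, a myosin regulatory light chain of non-muscle cells (0.92), with no slow-fibre gene among the 3. For Pln they were Pnrc2, a nuclear receptor coregulator (0.88), Tmem38b, a potassium channel of the calcium store (0.84), and Esam, an adhesion molecule of endothelium (0.84). Between members the correlation was 0.83 for Atp2a2 with Casq2, 0.75 for Sln with Pln, 0.72 for Sln with Atp2a2, 0.66 for Sln with Casq2, 0.62 for Pln with Atp2a2 and 0.48 for Pln with Casq2.

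On deviations from group means, which leave out the cold and genotype steps, the neighbours were again slow-fibre genes for Atp2a2 (Tpm3 with r = 0.91, Ldhb 0.87, Myl3, the slow essential light chain, 0.86) and Casq2 (Tpm3 0.77, Myl3 0.75, Atp2a2 0.71). For Sln they were Ciao1, a protein of iron-sulphur assembly (0.82), Tmem43 (0.82) and Sik1, a salt-inducible kinase (0.80). These 3 genes, like Sln, were low in the KO_RT libraries KO8 and KO10: Ciao1 had 2.29 and 3.10 CPM there against 8.52 to 14.98 CPM in the other KO_RT libraries, Tmem43 28.7 and 39.0 against 67.4 to 102, and Sik1 0.574 and 0.248 against 4.28 to 14.3. Without the 4 libraries lowest on the transcript-loss index, an alternative added after seeing the data, r was 0.56 for Ciao1, 0.63 for Tmem43 and 0.57 for Sik1, and the neighbours of the other 3 members had 0.58 to 0.89. For Pln they were Eln, elastin (0.69), Poc1b, a centriole protein (0.63), and Thsd1 (0.62). Deviations of Sln correlated with those of Pln at 0.32, of Casq2 at 0.19 and of Atp2a2 at 0.03. All of these describe libraries that share depth and scaling.

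Among genes that act on the pump or its peptides, the share called higher with cold was near that of all tested genes. Of 21 tested entries of a list of other SERCA regulators and of the kinases and phosphatases that set phospholamban's phosphorylation, 1 was called higher and 3 lower with cold in knockout rats (median log2 -0.17), and 2 higher and 5 lower in control rats (median -0.20). Over all tested genes 7.49% were called higher and 6.28% lower in knockout rats, and 12.4% and 8.28% in control rats. Hspb6, a small heat shock protein known in heart to act on phospholamban's phosphatase, rose in both (log2 0.59 ± 0.10 in knockout rats, edgeR adjusted p = 0.000117, and 0.50 ± 0.12 in control rats, adjusted p = 0.00228). It averaged 723 ± 91.3 CPM in KO_4C against 480.2 ± 87.3 CPM in KO_RT, and 708 ± 43.8 CPM in control_4C against 499.6 ± 102 CPM in control_RT. Ppp1r1a, the inhibitor 1 of protein phosphatase 1, fell in both (-0.69 ± 0.09, edgeR adjusted p = 1.17e-06, and -0.85 ± 0.10, adjusted p = 1.59e-06, knockout and control). Its levels were 372 ± 36.0 CPM in KO_4C against 601 ± 108 CPM in KO_RT, and 381 ± 44.2 CPM in control_4C against 688 ± 76.9 CPM in control_RT. Prkar2a, a regulatory subunit of protein kinase A, the kinase that phosphorylates phospholamban, also fell (log2 -0.87 ± 0.17 and -0.82 ± 0.19, edgeR adjusted p = 0.000400 and 0.00203). The catalytic subunit Prkaca had log2 changes of 0.07 ± 0.07 and -0.00 ± 0.08 (edgeR adjusted p = 0.588 and 0.987). The further SERCA peptides Mrln, Strit1 and Smim6 were not analysed here.

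For other pumps, the store and calcium release, 19 genes were tested. With cold, 1 was called higher and 4 lower in knockout rats (median log2 -0.08), against 7.49% and 6.28% of all tested genes. In control rats 1 of the 19 was called higher and 4 lower (median -0.18), against 12.4% and 8.28%. The 1 that rose in both was Tmem38b (log2 0.73 ± 0.10, edgeR adjusted p = 4.33e-06, and 0.69 ± 0.11, adjusted p = 8.32e-05, knockout and control), at 307 ± 39.4 CPM in KO_4C against 186 ± 25.7 CPM in KO_RT and 271 ± 46.9 CPM in control_4C against 168 ± 24.6 CPM in control_RT. Atp2b3, a calcium pump of the plasma membrane, fell (log2 -0.77 ± 0.11 and -0.67 ± 0.12, edgeR adjusted p = 6.49e-06 and 0.000289). Jsrp1, a protein of the junction between the store and the cell membrane, fell as well (log2 -0.56 ± 0.16 and -0.67 ± 0.18, edgeR adjusted p = 0.0160 and 0.00849). Cacna1s, the voltage sensor of release, fell in knockout rats (log2 -0.75 ± 0.13, edgeR adjusted p = 8.32e-05). In control rats its change was -0.39 ± 0.14 (edgeR adjusted p = 0.0489), and that call was lost on leaving out 1 library in 16 of 32 cases, with values from -0.46 to -0.31 and a highest adjusted p of 0.120.

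Of 22 tested factors of calcium-dependent and slow-fibre transcription, 2 were called higher and 7 lower in knockout rats (median log2 -0.21). In control rats 2 were called higher and 6 lower (median -0.05). The shares of all tested genes called higher and lower were 7.49% and 6.28% in knockout rats, and 12.4% and 8.28% in control rats. Esrrg, an oestrogen-related receptor of oxidative muscle, rose (log2 0.70 ± 0.11 and 0.69 ± 0.13, edgeR adjusted p = 3.96e-05 and 0.000275, knockout and control). Rcan1, an inhibitor and target of calcineurin, rose too (log2 0.88 ± 0.22 and 0.77 ± 0.25, edgeR adjusted p = 0.00571 and 0.0253). Its call in control rats was lost without control_4C replicate 1 or 4 or control_RT replicate 4, 5 or 6 (log2 0.59 to 0.70). Tead1, a factor of the Hippo pathway that binds slow-muscle promoters, fell (log2 -1.39 ± 0.16 and -1.01 ± 0.18, edgeR adjusted p = 2.63e-07 and 0.000201). Thra, a thyroid hormone receptor, fell (log2 -0.52 ± 0.09 and -0.66 ± 0.11, edgeR adjusted p = 0.000179 and 6.56e-05). Sox6, a repressor of slow-fibre genes, fell (log2 -0.41 ± 0.14 and -0.59 ± 0.16, edgeR adjusted p = 0.0422 and 0.00689); in knockout rats that call was lost on leaving out 1 library in 10 of 32 cases, with values from -0.49 to -0.34. Ppp3cb, a catalytic subunit of calcineurin, fell (log2 -0.64 ± 0.19 and -0.66 ± 0.22, edgeR adjusted p = 0.0212 and 0.0268), and in control rats lost its call without control_4C replicate 7 or control_RT replicate 2 or 6 (log2 -0.60 to -0.57).

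The calls of the 13 genes named from these 3 lists as called in both genotypes depended on the covariates. With the slow-fibre score as a covariate 6 of 13 lost the call in knockout rats and 8 of 13 in control rats, and with the transcript-loss index 3 of 13 and 9 of 13 did. Hspb6 had a log2 change of 0.19 and 0.049 with the score (edgeR adjusted p = 0.397 and 0.865, knockout and control), and Jsrp1 had -0.35 and -0.12 with the index (edgeR adjusted p = 0.0741 and 0.7996). Without the 4 libraries lowest on the index, Sox6 (-0.27, edgeR adjusted p = 0.229) and Ppp3cb (-0.51, 0.101) lost the call in knockout rats, and Ppp3cb (-0.58, 0.0753) and Cacna1s (-0.38, 0.0689) in control rats. Rcan1 lost it in control rats in a fit of the compared groups alone (0.75, edgeR adjusted p = 0.0741). Ppp1r1a, Tmem38b, Atp2b3 and Thra kept their calls in both genotypes under each alternative run.

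Other cell types can carry these genes: Sln and Casq2 are abundant in heart atria or heart, and Pln in heart and smooth muscle. Of 8 heart markers 4 were analysed, and their sum ran from 173 to 458 CPM in KO_4C against 46.8 to 202 CPM in KO_RT, and from 120.4 to 438 CPM in control_4C against 66.0 to 225 CPM in control_RT. Most of that sum was Ankrd1, a stress-responsive gene of striated muscle, which rose in both genotypes (log2 1.43 ± 0.32, edgeR adjusted p = 0.00221, and 1.21 ± 0.36, adjusted p = 0.0159, knockout and control). Ryr2, the cardiac release channel, was at 1.21 CPM or less in every library. It was at 0 in some room-temperature libraries of both genotypes, and below the filter. Myh6, a cardiac myosin heavy chain, averaged 3.63 ± 1.182 CPM in KO_4C against 3.32 ± 1.53 CPM in KO_RT. In control rats Myh6 averaged 4.28 ± 1.62 CPM in control_4C against 2.64 ± 1.23 CPM in control_RT. Myl4, the atrial light chain, was higher than these, at 28.0 ± 11.8 CPM in KO_4C against 17.5 ± 15.4 CPM in KO_RT. In control rats Myl4 averaged 25.9 ± 6.63 CPM in control_4C against 22.7 ± 8.06 CPM in control_RT. Its log2 changes were 0.67 ± 0.44 and 0.19 ± 0.50 (edgeR adjusted p = 0.348 and 0.826, knockout and control).

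Smooth muscle markers, all 8 of 8 analysed, summed to between 319 and 584 CPM in KO_4C against 238 and 569 CPM in KO_RT, and between 346 and 480.3 CPM in control_4C against 273 and 346 CPM in control_RT. In knockout rats their median log2 change was 0.21 and the smallest adjusted p was that of Tagln (edgeR, 0.113); in control rats 3 of 8 were called higher (Tagln, Acta2 and Cnn1) with a median of 0.59. Markers of denervated fibres and endplates, in which Sln is known to rise in mice, were called higher for 4 of 10 in knockout rats. In control rats 5 of 10 were, and none was called lower in either genotype. The summed markers ran from 266 to 569 CPM in KO_4C against 181 to 384 CPM in KO_RT. In control rats they ran from 281 to 611 CPM in control_4C against 231 to 433 CPM in control_RT. Within this list Chrnd averaged 75.3 CPM in KO_4C against 24.6 CPM in KO_RT, and 74.3 CPM in control_4C against 25.2 CPM in control_RT. Gadd45a averaged 32.6 CPM in KO_4C against 16.2 CPM in KO_RT, and 33.8 CPM in control_4C against 14.5 CPM in control_RT. Others did not rise: Myog averaged 154 CPM in both knockout groups, and 201 CPM in control_4C against 199 CPM in control_RT. Myh8 averaged 2.23 CPM in KO_4C against 3.53 CPM in KO_RT, and 2.18 CPM in control_4C against 3.24 CPM in control_RT. Beside each list here, 7.49% of all tested genes were called higher in knockout rats and 12.4% in control rats. Adipocyte markers summed to between 189 and 244 CPM in KO_4C against 75.7 and 178 CPM in KO_RT, with 1 of 4 called higher, and between 148 and 248 CPM in control_4C against 67.0 and 105 CPM in control_RT, with 4 of 4 called higher. Macrophage markers summed to between 55.5 and 97.1 CPM in KO_4C against 32.4 and 46.1 CPM in KO_RT, and between 59.7 and 116 CPM in control_4C against 41.9 and 65.0 CPM in control_RT, with 2 of 4 called higher in each genotype. Of the 9 fast-fibre markers analysed, from a list of 12, 3 were called lower in knockout rats (median log2 -0.07) and 4 in control rats (median -0.37). The shares of all tested genes called lower were 6.28% and 8.28%, knockout and control. The 2 erythroid markers analysed, from a list of 3, had a median log2 change of 1.07 in knockout rats and were both called higher in control rats (median 2.61). Their median summed level was 37.3 CPM in KO_4C against 17.1 CPM in KO_RT, and 30.2 CPM in control_4C against 4.69 CPM in control_RT. The part of these cell types in the member results was not tested.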

How the data were processed

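Per the labels, total RNA of whole gastrocnemius (500 ng per sample) was made into Lexogen QuantSeq libraries, which read the 3′ end of transcripts, as 50 bp forward reads. The authors deposited 2 tables per Ensembl gene: whole-number read counts, not normalised, and a signal obtained from those counts by dividing each library by its own size factor (0.523 to 2.06). Per the submitters' processing notes, R 3.4.3, DESeq2 1.18.1 and the build Rnor_6.0 were used; the aligner, counting tool and strand setting were not given in the sources used here. Every deposited count was even, so counts divided by 2 were an alternative; the smallest sum of a gene was 96. Small counts limit the precision of Sln at room temperature (4 to 88 counts per library). No 2 libraries of a group were near duplicates (smallest chi-square per degree of freedom 11.4). Knockout room-temperature libraries are named by the number of their column; columns KO8 and KO9 match the title of 1 library and the description of another of that group, so they were placed by group and left unpaired.

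Counts were tested in R 4.3.3 with edgeR 4.0.16 (filterByExpr with minimum count 10 and smallest group 7, TMM factors, robust quasi-likelihood fit over all 32 libraries, 1 mean per group), adjusted by Benjamini-Hochberg over 11594 genes per contrast at 0.05; 1307 genes were not tested. SE is the absolute log2 change over the square root of F. Log2 ratios within libraries (pseudocount 0.5) and correlations of log2 CPM (prior count 2) were tested by exact permutation in Python 3.11.15 with scipy 1.17.1. The fits were checked on simulated data. Alternatives were RLE factors, TMM with the 20 top genes by count left out, DESeq2 1.42.0, no filter, the compared groups alone, a replicate block, the slow-fibre markers as a covariate, counts divided by 2, an adjusted p of 0.01, a ratio pseudocount of 2, leaving out 4 libraries together, leaving out each library, and, added after seeing the data, the transcript-loss index as a covariate and correlations of deviations without those 4 libraries. That index holds 104 genes with a mean of at least 5 CPM that were at least 2 log2 units lower in KO10 than the median of the KO_RT libraries other than KO8 and KO10, members left out. The 4 libraries left out together are the lowest on this index, so their choice too rests on these data.

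The members, the 12 gene lists and the tests were chosen with earlier results of these data known. Named list genes are those called in both cold contrasts, at most 6 per list; a few others are named as members of a pair or for an overlap. Symbols are those of the deposited table. Promoter sequences are RefSeq's for GRCr8, a different build, so no position of it was set against the counts.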

Additional observations from a re-analysis of the deposited data

Results flagged for a closer look

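Among 40 groups of values examined for a single library far from the rest of its group, 2 were marked; chance alone marks about 1 in 20 groups. Sln stood at 73.1 CPM in control_4C replicate 2, with the next library at 31.8 CPM, a gap of 0.655 of the group's range. Without that library the cold change of Sln in control rats was 2.84 on the log2 scale. Atp2a2 stood at 1559.7 CPM in KO_4C replicate 6, a gap of 0.553 of the range. The same library had the lowest Sln per Atp2a2 of its group (8.28 per 1000 Atp2a2 counts) and the highest total of all libraries (2.58e+07 counts). The correlation of Sln with Atp2a2 in KO_4C was r = -0.75 (exact permutation p = 0.0290, adjusted p = 0.289, n = 9). Spearman rho was -0.33 (exact permutation adjusted p = 0.791). Without the 2 libraries farthest from the median of Sln, r was -0.22 over a narrower range of Sln. The part of depth in these values was not tested.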

How the results depend on the processing

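In 32 fits that each left out 1 library, 8 of 8 member cold calls held, with Sln between 2.85 and 3.11 in knockout rats and 2.84 and 3.42 in control rats, on the log2 scale as are all changes here; with the slow-fibre score as a covariate 6 of the 8 were lost, and with the transcript-loss index 3. No call of a genotype difference or interaction was gained for a member or a ratio under any alternative run. Small counts limit Sln at room temperature, where 0.574 CPM is 4 counts, and 4 libraries low on the transcript-loss index limit the genotype comparison there. That index was chosen after seeing the data. The cause of each change given here was not tested.

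With the slow-fibre score as a covariate, the cold changes in knockout rats that lost their call were Pln (0.64), Atp2a2 (0.12) and Casq2 (-0.00086), and those in control rats were Pln (0.56), Atp2a2 (0.11) and Casq2 (-0.055). With it Casq2 had 0.057 for knockout against control after cold, and Atp2a2 and Casq2 had interactions of 0.014 and 0.054. With the transcript-loss index as a covariate, Pln (0.46), Atp2a2 (0.70) and Casq2 (0.56) lost their cold calls in control rats. Sln (-0.73) and Casq2 (-0.16) then changed sign for knockout against control at room temperature, as did the interactions of Sln (0.91), Atp2a2 (0.037) and Casq2 (0.13). Without the 4 libraries lowest on it, signs turned for Casq2 at room temperature (-0.081) and for the interactions of Pln (-0.075) and Casq2 (0.024). TMM factors without the 20 most abundant genes gave -0.0070 for Casq2, knockout against control at room temperature.

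The count of genes called, 1596 with cold in knockout rats, was 474 with the slow-fibre score and 799 at an adjusted p of 0.01. In control rats, with 2399 called, it was 547 with the score, 1209 at 0.01 and 369 with the loss index. For knockout against control at room temperature (303 called) it was 21 at 0.01, 0 in a fit of the compared groups alone, 708 without the 4 libraries, 1 with the loss index and 573 in DESeq2. After cold (6 called) it was 121 with RLE factors, 128 without the 20 most abundant genes, 3 with no filter, 81 with counts divided by 2, 433 with the slow-fibre score, 0 at 0.01, 0 for the groups alone, 270 with the loss index and 432 in DESeq2. For the interaction (3 called) it was 1 with no filter, 1 with the score, 0 at 0.01, 288 without the 4 libraries, 1 with the loss index and 106 in DESeq2.

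Ratios that changed sign were all among those that did not pass the test. With a pseudocount of 2, Pln/Casq2 had a cold change of -0.0056 in knockout rats. Without the 4 libraries, the room-temperature genotype differences of Sln/Atp2a2 and Sln/Pln were 0.39 and 0.13. Interactions were -0.13 for Sln/Atp2a2, -0.018 for Pln/Atp2a2, -0.11 for Sln/Pln, -0.19 for Sln/Casq2 and -0.075 for Pln/Casq2, and the cold changes of Pln/Casq2 were -0.036 in knockout and 0.040 in control rats. Without the 2 libraries farthest from the median, correlations turned to -0.49 for Sln with Atp2a2 in control_RT, -0.23 and -0.58 for Pln with Casq2 in KO_4C and KO_RT, and -0.050 for Atp2a2 with Casq2 in control_4C.

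Leaving out 1 library at a time moved the counts to between 80 and 792 (room-temperature genotype), 0 and 556 (genotype after cold) and 0 and 226 (interaction). Knockout against control at room temperature, Casq2 ran from -0.095 to 0.15. After cold, Sln ran from -0.036 to 0.57, Atp2a2 from -0.018 to 0.17 and Casq2 from -0.14 to 0.041. Interactions ran from -0.44 to 0.17 for Sln, -0.060 to 0.17 for Pln and -0.22 to 0.031 for Casq2. Among ratios, Sln/Atp2a2 ran from -0.26 to 0.18, Pln/Atp2a2 from -0.056 to 0.18, Sln/Pln from -0.32 to 0.077 and Sln/Casq2 from -0.079 to 0.38 for the room-temperature genotype. Sln/Pln ran from -0.16 to 0.27 after cold and from -0.058 to 0.43 for the interaction, and Casq2/Atp2a2 from -0.080 to 0.079 for the interaction. The cold changes in knockout rats ran from -0.17 to 0.032 for Pln/Atp2a2 and -0.12 to 0.083 for Pln/Casq2.

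Same-numbered cold and room-temperature libraries did not deviate together: of the 14 pairs that the numbers allow, 3 had a correlation of deviations over 0.1 and 1 correlated best with its own number (r from -0.22 to 0.19), so the samples share only a number. With the replicate block, over the 28 libraries in those pairs, 1120 genes were called with cold in knockout rats, 2661 in control rats and 1 for the interaction, and 8 of 8 member cold calls held. Of the 13 named list genes, 4 then lost their cold call in knockout rats (Jsrp1, Rcan1, Sox6 and Ppp3cb) and 1 in control rats (Rcan1). The interaction of Casq2 was then 0.040, and in knockout rats Pln/Casq2 changed by -0.17. Sln/Atp2a2 changed by 2.06 in knockout rats (adjusted p = 0.0625, exact sign-flip permutation), no longer past the threshold, in a test of 7 pairs.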
